A study of Mus musculus with 15 samples.

Results

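The genes described here are 39 genes of the unfolded protein response and the integrated stress response, taken by name from the 42396 gene entries of each deposited table. They comprise 14 chaperones and folding enzymes of the endoplasmic reticulum, 5 stress sensors with the factor Xbp1, 4 genes of endoplasmic reticulum associated degradation, 7 transcription factors, feedback genes and targets of the integrated stress response, 7 enzymes of serine, one-carbon and proline or asparagine synthesis, and the secreted factors Fgf21 and Gdf15. RNA-seq libraries came from the tibialis anterior, a hindlimb muscle, of adult C57BL/6 mice taken 2 months after injection of AAV6, an adeno-associated virus, into the hindlimb. Mock animals received AAV6 with EGFP, a fluorescent protein, and the others AAV6 with LSMEM2 C-del, a form of a membrane protein whose name the labels do not explain. The virus was given to all groups, so no group shows muscle without it. The promoter of the vectors is not given in the sources used here.

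For the males there were 4 libraries each of mock and C-del, and for the females 3 of mock and 4 of C-del. The labels do not state whether each library is 1 animal, so the p-values speak only of library-to-library spread, which may be technical. Each sex has a table of its own: a difference of the sexes and one of the tables cannot be told apart, and levels are compared within a sex. Male libraries carry column numbers, female libraries the numbers of their titles.

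As background, the lumen of the endoplasmic reticulum is where secreted and membrane proteins fold, with the help of chaperones such as Hspa5 (BiP). When unfolded proteins accumulate, the sensors Ern1 (IRE1), Eif2ak3 (PERK) and Atf6 raise chaperones and degradation factors through the transcription factors XBP1 and ATF6, and PERK slows protein synthesis by phosphorylating eIF2 alpha. Other kinases, among them the amino acid sensor Eif2ak4 (GCN2), phosphorylate the same factor, and this shared branch, the integrated stress response, favours the translation of ATF4, which drives amino acid synthesis genes. ATF4 itself is regulated largely at translation, and IRE1 acts on Xbp1 by splicing, steps that gene counts do not measure. In skeletal muscle the pathway is studied in exercise, muscle disease and mitochondrial defects.

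The motifs through which these branches act can be read in the promoters. RefSeq promoter sequences of GRCm38.p6, from 250 bases before to 50 bases after the start, were found for 35 of the 39 genes (38 promoters). The endoplasmic reticulum stress element (ERSE, the letters CCAAT, then 9 bases of any kind, then CCACG, on either strand), bound by ATF6 and XBP1, was in the promoters of 8 of the 35 genes (22.9%), against 0.119% of all 32851 promoters of the same length. Those genes were Hspa5, Hsp90b1, Calr, Canx, Pdia6, Dnajc3, Creld2 and Syvn1. The related ERSE-II (ATTGG, then 1 base of any kind, then CCACG, so that it shares letters with ERSE) was in Dnajb11 and Herpud1 (5.71%, against 0.0365%). A CARE site (TGATGCAA), the kind ATF4 binds with its partners, was in Chac1, Herpud1, Pycr1 and Fgf21 (11.4%, against 0.895%). The letters TGACGTGG of an UPRE, whose opposite strand also holds CCACG, were in none of the 35 genes and in 0.676% of all promoters. A match is a match of letters and no measured binding. Member shares count genes, and the shares of all promoters count promoters, those of the members included. The genes were listed as members of these pathways, so a higher share of the pathways' motifs among them is no independent result. Shown first are 250 bases upstream of 4 genes, for each kind of site: Hspa5 and Hsp90b1, chaperones that passed the test in males, Herpud1, which holds an ERSE-II and a CARE, and Chac1, whose levels varied most between male mock libraries among the tested genes. They read 5′ to 3′ on the gene's strand, with the fixed letters of each site in capitals (CGTGG before ATTGG is an ERSE and TTGCATCA a CARE on the opposite strand).
Hspa5 promoter (chr2:34771840-34772089, plus strand): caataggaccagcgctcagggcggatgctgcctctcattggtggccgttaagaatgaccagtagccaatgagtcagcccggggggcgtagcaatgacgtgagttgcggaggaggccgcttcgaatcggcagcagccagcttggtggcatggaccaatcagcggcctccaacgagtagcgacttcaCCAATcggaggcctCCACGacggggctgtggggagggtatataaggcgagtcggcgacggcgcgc
Hsp90b1 promoter (chr10:86705445-86705694, minus strand): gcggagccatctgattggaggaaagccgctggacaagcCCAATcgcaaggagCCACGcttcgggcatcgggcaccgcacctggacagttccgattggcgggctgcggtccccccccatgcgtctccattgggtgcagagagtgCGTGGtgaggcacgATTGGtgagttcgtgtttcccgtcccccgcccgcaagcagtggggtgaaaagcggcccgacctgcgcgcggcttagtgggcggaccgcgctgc
Herpud1 promoter (chr8:94386179-94386428, plus strand): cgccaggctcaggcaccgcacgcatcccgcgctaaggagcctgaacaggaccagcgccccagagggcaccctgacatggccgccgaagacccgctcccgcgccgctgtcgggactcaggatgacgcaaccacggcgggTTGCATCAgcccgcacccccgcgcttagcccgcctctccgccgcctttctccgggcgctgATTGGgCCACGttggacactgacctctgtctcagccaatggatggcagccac
Chac1 promoter (chr2:119350992-119351241, plus strand): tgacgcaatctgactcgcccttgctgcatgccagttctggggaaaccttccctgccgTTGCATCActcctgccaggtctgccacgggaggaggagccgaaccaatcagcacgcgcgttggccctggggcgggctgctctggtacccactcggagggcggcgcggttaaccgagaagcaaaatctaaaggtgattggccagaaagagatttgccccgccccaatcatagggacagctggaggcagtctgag
The remaining ERSE and CARE sites follow with 6 bases on each side, written on the strand of the motif, so that the unfixed middle of each ERSE can be compared.
Calr ERSE (chr8:84847075-84847093): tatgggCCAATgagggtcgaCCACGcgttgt
Canx ERSE (chr11:50325800-50325818): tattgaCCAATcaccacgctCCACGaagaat
Pdia6 ERSE (chr12:17266491-17266509): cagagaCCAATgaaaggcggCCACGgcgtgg
Dnajc3 ERSE (chr14:118937827-118937845): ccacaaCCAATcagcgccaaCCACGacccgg
Creld2 ERSE (chr15:88819520-88819538): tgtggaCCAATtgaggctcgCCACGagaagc
Syvn1 ERSE (chr19:6046532-6046550): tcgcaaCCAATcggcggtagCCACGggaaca
Pycr1 CARE (chr11:120643844-120643851): tgtgtaTGATGCAAtgcaca
Fgf21 CARE (chr7:45615622-45615629): gacggaTGATGCAAtggggg

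In the Hspa5 promoter the exact ERSE match lay 65 to 47 bases before the start. The Hsp90b1 promoter held a pair of exact ERSE matches, 1 on each strand, 212 to 194 and 107 to 89 bases before the start. Sites that differ from the fixed letters were not searched for. Fixed letters were shared, while the spacer letters differed between genes.

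Before the results, the libraries were checked. Lsmem2, the overexpressed gene, was at 28.5 to 29.7 CPM (gene counts scaled to library size) in the male mock libraries and at 481, 2355, 1865 and 1287 CPM in male C-del libraries 1 to 4. In females it was at 30.01 to 32.8 CPM in mock and at 1361 to 2705 CPM in C-del libraries, so all C-del libraries lay above all mock libraries, male C-del library 1 being the lowest of them. Total counts were 14297600 to 17744000 in males and 9285150 to 12054900 in females. The 10 skeletal muscle markers summed to 133215 to 179324 CPM, and the 8 heart markers, checked because the extraction protocol speaks of hearts, to 13.1 to 110 CPM. Female mock library 2 stood apart in immune genes, and mock library 3 in macrophage and leukocyte markers. The 22 plasma and B cell markers summed to 6855 CPM in female mock library 2, with 0 of them at 0, against 111 CPM (12 at 0, Igkc among them) in mock library 1, 46.4 CPM (4 at 0) in mock library 3 and 15.8 to 70.4 CPM (8 to 11 at 0) in the female C-del libraries. Jchain, Ighm and Igkc, genes of antibody-secreting cells, were at 354, 4269 and 1693 CPM in that library. The 18 macrophage and leukocyte markers summed to 104, 767 and 350 CPM in female mock libraries 1 to 3 and to 65.5 to 135 CPM in the female C-del libraries, with Cd8a and Nkg7 at 0 in mock library 1. The 6 endothelial markers summed to 269 to 303 CPM in female mock and to 342 to 357 CPM in female C-del libraries, without overlap, and 3 of the 6 were higher with C-del at an unadjusted p under 0.05 (0 passed with edgeR and 1 with DESeq2). In males those 6 summed to 343 to 364 CPM in mock and to 345 to 371 CPM in C-del libraries. In males the macrophage and leukocyte markers summed to 86.1 to 104 CPM in mock and to 212, 239, 69.9 and 89.4 CPM in C-del libraries 1 to 4. Tendon and fibroblast markers (14) summed to 1495, 1413, 3394 and 2379 CPM in male mock libraries 1 to 4 and to 1286 to 1694 CPM in male C-del libraries.

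**Figure D1:**
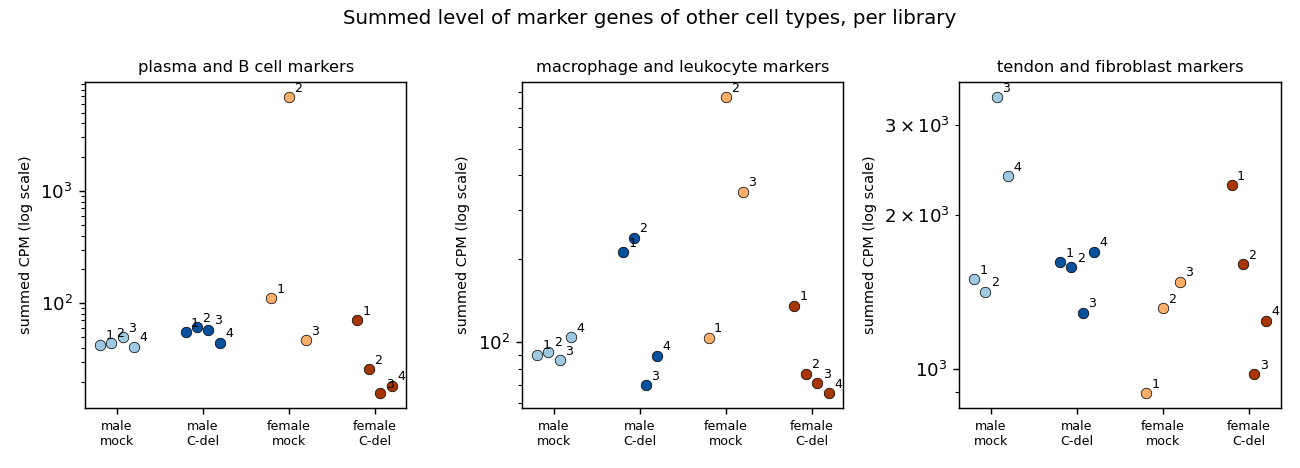
Summed CPM (log axis) of marker genes of other cell types, 1 point per library, numbered, in the 4 groups. Female mock library 2 stands at 6855 CPM for plasma and B cell markers, and male C-del libraries 1 and 2 stand at 212 and 239 CPM for macrophage and leukocyte markers.

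In males, 7 of the 37 members that could be tested were higher with C-del and 0 were lower. The 7 were the chaperones Hspa5, Hsp90b1 and Hyou1, the transcription factors Atf4 and Cebpb, and the enzymes Mthfd2 and Aldh18a1, by 1.13-fold (Hspa5 and Atf4) to 1.72-fold (Mthfd2). The test was edgeR's quasi-likelihood test with a Benjamini-Hochberg adjusted p under 0.05 over all genes. Of all 14543 genes tested in males, 5.8% were higher and 5.37% lower, and at an unadjusted p under 0.05 members counted 13 higher and 2 lower, against 13.1% and 12.9% of all genes. DESeq2 called 7 higher and 0 lower (5.64% and 4.66% of all genes). The median member log2 fold change was 0.12, and -0.0047 over all genes. Of the members, 26 had a log2 fold change above 0 and 11 below, against 7125 and 7418 of all genes. Fgf21 and Gdf15, hormones released in muscle stress, had counts of 0 to 1 and 0 to 4 per library over both sexes and did not pass the low-count filter.

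The chaperones and folding enzymes among the members leaned to higher values in males: 13 of 14 had a log2 fold change above 0 (median 0.18), and 3 passed. Of 41 tested genes of endoplasmic reticulum folding and export outside the members, 17 were above 0 and 24 below (median -0.028). Hspa5 (chr2:34772090-34776529, RefSeq annotation of GRCm38), the main chaperone of the compartment and a binder of the sensors, was at 182, 167, 190 and 191 CPM in male mock libraries 1 to 4. In the C-del libraries it was at 208, 216, 195 and 208 CPM. All 4 C-del libraries lay above all mock libraries, and the log2 fold change was 0.18 ± 0.051 (SE; adjusted p = 0.035). Hsp90b1 (GRP94, chr10:86690841-86705444), the lumenal member of the HSP90 chaperones, was at 106, 96.3, 120 and 108 CPM in mock and at 131, 140, 113 and 123 CPM in C-del libraries. C-del library 3 lay below mock library 3, so the groups overlapped. The log2 fold change of Hsp90b1 was 0.24 ± 0.072 (adjusted p = 0.049). Hyou1 (chr9:44379490-44392369), a large chaperone that acts as nucleotide exchange factor for Hspa5, was at 28.0, 27.4, 29.95 and 27.7 CPM in mock and at 31.3, 38.3, 33.0 and 31.8 CPM in C-del libraries. These groups did not overlap, and the log2 fold change was 0.25 ± 0.070 (adjusted p = 0.033). Hspa5 and Hsp90b1 carry ERSE sites in the promoters printed above, and no promoter of Hyou1 was used here.

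Further folding genes among the members shared the direction without passing. The lectin chaperones Calr and Canx had log2 fold changes of 0.17 each (adjusted p = 0.081 and 0.073). The disulphide isomerases Pdia4 and Pdia6 had 0.26 and 0.21 (adjusted p = 0.16 and 0.17), and Dnajb11, a partner of Hspa5, had 0.14 (adjusted p = 0.17). Pdia4 was at 14.6 and 15.6 CPM in C-del libraries 1 and 2, but at 11.5 and 11.4 CPM in libraries 3 and 4, within the 10.5 to 12.3 CPM of mock. Pdia3, another isomerase, showed the same split, at 63.7, 72.9, 51.4 and 56.9 CPM in C-del libraries against 45.5 to 61.1 CPM in mock. C-del library 2 was the highest of the 8 male libraries for 14 of 37 members, against 13.3% of all genes. C-del library 1 was the highest for 6 (12.8%), as was mock library 1 (6, with 13.1%). C-del libraries 1 and 2 had the highest sums of macrophage and leukocyte markers, 212 and 239 CPM. Without these 2 libraries, chosen after the data were seen, Hspa5, Hsp90b1 and Hyou1 had log2 fold changes of 0.15, 0.14 and 0.20 and adjusted p of 0.157, 0.298 and 0.0965. The part of leukocyte RNA in these values was not tested. In bulk muscle, a change in the number of cells of a type and a change in RNA per cell cannot be told apart.

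Sensors did not pass in males, 0 of 5. Ern1, the IRE1 sensor, was at 18.2, 16.03, 14.3 and 12.7 CPM in mock and at 12.0, 12.9, 13.3 and 11.05 CPM in C-del libraries, with a log2 fold change of -0.32 ± 0.11 (adjusted p = 0.071). Mock library 4 was within the C-del range, and without it the adjusted p of Ern1 was 0.0318. Atf6, the membrane-bound factor cleaved under stress, had -0.12 (adjusted p = 0.18), and Xbp1, which Ern1 splices, had 0.12 (adjusted p = 0.22). The kinases Eif2ak3 and Eif2ak4 stayed between 5.14 and 7.77 CPM in all 8 male libraries, with both groups overlapping.

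Degradation genes did not pass in males either, 0 of 4. Edem1, a mannose-binding factor that hands misfolded glycoproteins to degradation, was at 12.9, 12.1, 13.1 and 12.5 CPM in mock and at 16.96, 17.97, 12.1 and 13.95 CPM in C-del libraries (log2 fold change 0.27, adjusted p = 0.13). C-del libraries 1 and 2 were again the high ones. Without C-del library 3, Edem1, Calr and Canx passed (adjusted p = 0.0256, 0.0368 and 0.0140). That library was the lowest C-del library for each of them, so leaving it out had to raise their fold changes. Herpud1, Sel1l and Syvn1, parts of the membrane ubiquitin ligase complex, differed little: Syvn1 was at 25.8 to 28.4 CPM in mock and at 26.4 to 27.4 CPM in C-del libraries.

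Among the genes of the integrated stress response, Atf4 and Cebpb rose in males, 2 of 7. Atf4 (chr15:80255184-80257545), the central factor of this response, was at 221, 215, 208 and 206 CPM in mock and at 229, 243, 247 and 243 CPM in C-del libraries. The groups did not overlap, and the log2 fold change was 0.18 ± 0.043 (adjusted p = 0.016). Cebpb (chr2:167688915-167690432), a bZIP factor that pairs with ATF4 and also acts in inflammation, was at 22.0, 22.6, 17.4 and 19.4 CPM in mock and at 31.0, 32.3, 28.3 and 36.1 CPM in C-del libraries. Its C-del libraries all lay above its mock libraries, by 1.57-fold (log2 fold change 0.65 ± 0.090, adjusted p = 0.00044). Leaving out C-del libraries 1 and 2, with the high leukocyte sums, gave Cebpb 0.66 (adjusted p = 0.00557) and Atf4 0.21 (adjusted p = 0.0144).

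None of the other 5 genes of this group passed in males. Ddit3 (CHOP), a factor tied to cell death under stress, was at 21.3 to 24.8 CPM in male mock and at 20.6 to 25.5 CPM in C-del libraries. Trib3, a pseudokinase that ATF4 and CHOP induce, had a log2 fold change of -0.44 (adjusted p = 0.20). Chac1, an enzyme that breaks down glutathione, was at 43.3, 48.0, 14.5 and 12.4 CPM in mock libraries 1 to 4 and at 15.3, 14.6, 9.04 and 7.44 CPM in C-del libraries. Its mock libraries fell apart, 1 and 2 being high and 3 and 4 low, and the latter pair lay between the C-del values. The log2 fold change of Chac1 was -1.35 ± 0.57 (adjusted p = 0.20). Mock libraries 3 and 4 also had the highest tendon and fibroblast sums, 3394 and 2379 CPM. Without them Chac1 and Ern1 were lower (log2 fold changes -1.97 and -0.48, adjusted p = 0.0273 and 0.0193), as were 2.5% of all genes. Both genes were lower in mock libraries 3 and 4 than in 1 and 2, so leaving these out had to lower the fold changes. That fit keeps mock libraries 1 and 2 alone. Ppp1r15a and Ppp1r15b, which guide the phosphatase that ends the response, overlapped between groups.

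Of the synthesis enzymes, Mthfd2 and Aldh18a1 rose in males, 2 of 7. Mthfd2 (chr6:83305704-83326011), the mitochondrial one-carbon enzyme, was at 5.37, 3.89, 3.89 and 5.14 CPM in mock and at 7.99, 7.43, 8.31 and 7.73 CPM in C-del libraries. The groups did not overlap, with the narrower spread in C-del (7.87 ± 0.375 CPM, SD, n = 4, against 4.57 ± 0.792 CPM). The log2 fold change was 0.78 ± 0.12 (adjusted p = 0.0011). Aldh18a1 (chr19:40550257-40588463), which starts proline synthesis from glutamate, was at 5.95, 5.10, 8.05 and 6.81 CPM in mock and at 10.2, 7.94, 8.51 and 9.42 CPM in C-del libraries. Mock library 3 just passed C-del library 2, and the log2 fold change was 0.48 ± 0.13 (adjusted p = 0.034). Psat1 and Phgdh of serine synthesis, Asns, Shmt2 and Pycr1 did not pass. Psat1 was at 1.57 to 1.68 CPM in mock and at 2.84, 2.15, 1.47 and 1.80 CPM in C-del libraries. The other 19 members whose fold changes are not given one by one for males lay between -0.26 and 0.35 (lowest adjusted p = 0.29).

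Of the 7 members that passed in males, 5 did not overlap between groups (Hspa5, Hyou1, Atf4, Cebpb and Mthfd2). Among all genes tested, 9.05% were higher without overlap. For these 5, exact permutation of the library labels (two-sided, on log2(CPM + 1)) gave p = 0.029, the smallest p that 4 against 4 libraries allow. Groups without overlap always give this p, so it adds nothing to the lack of overlap. Hsp90b1 and Aldh18a1, whose groups overlapped, had p = 0.057 in the same permutation. Cebpb and Mthfd2 also passed in each of the 8 fits that left out 1 male library. Atf4 did not pass without mock library 3 or 4 (adjusted p = 0.0535 and 0.0615). Hspa5 did not pass without mock 1 or 2 or without C-del 1, 2 or 4 (0.0721 to 0.0867). Hyou1 lost its call without mock 1, 2 or 4 or without C-del 2 (0.0754 to 0.0858). Aldh18a1 lost it without mock 1, 2 or 4 or without C-del 1 or 4 (0.0658 to 0.0979). Hsp90b1 kept its call only without mock 3 or C-del 3, and otherwise had adjusted p of 0.0718 to 0.118. In a fit of all 15 libraries, which shares its estimate of spread with the females, the same fold changes had adjusted p of 0.166 to 0.475 and 0 of the 7 passed. With total counts in place of TMM factors, Atf4, Cebpb and Mthfd2 passed.

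**Figure D2:**
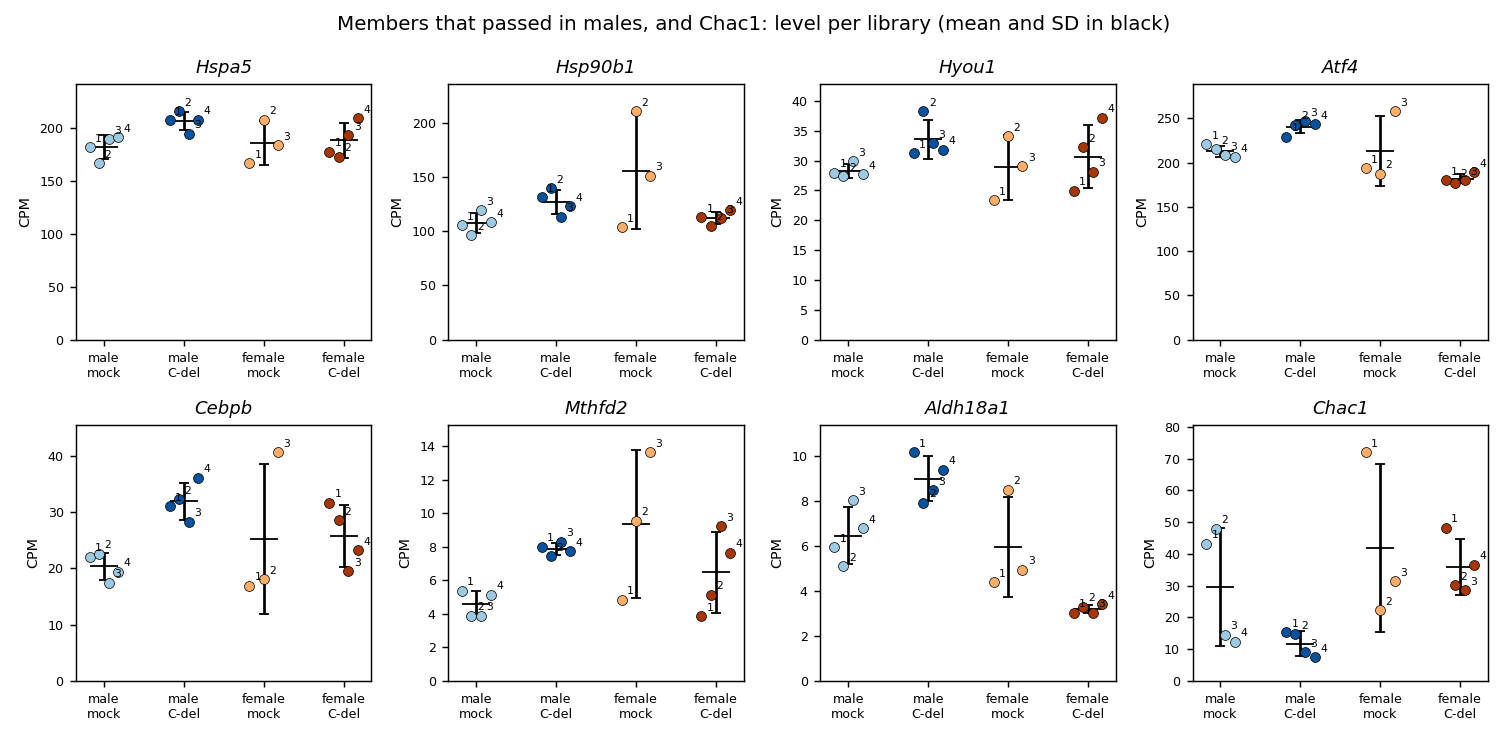
CPM per library (points, numbered) with the group mean and SD (black) for the 7 members that passed in males and for Chac1, in the 4 groups. In males the C-del points of Cebpb and Mthfd2 lie above all mock points, and Chac1 mock libraries split into 43.3 and 48.0 against 14.5 and 12.4 CPM.

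The members can also be read by promoter motif. In males, the 8 members with an ERSE had a median log2 fold change of 0.18 (range -0.02 to 0.24) and 2 passed. The 25 tested members whose promoter held no exact ERSE had 0.07 (range -1.35 to 0.78) and 4 passed. Dnajb11 and Herpud1, which hold the related ERSE-II, were among these 25. In females the medians were -0.18 and -0.23. These medians describe lists and carry no test.

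In females, 0 of the 37 tested members passed with edgeR in either direction, against 0.0141% of 14220 genes higher and 0% lower. Taken at an unadjusted p under 0.05, 0 members were higher and 8 lower, against 4.81% and 7.09% of all genes. The 8 were the chaperone genes Sdf2l1, Hsp90b1 and Pdia3, the degradation genes Edem1 and Herpud1, and the enzymes Aldh18a1, Psat1 and Phgdh. DESeq2 called 1 member, Sdf2l1, lower (1.81% of all genes) and 0 higher (0.83%). The median member log2 fold change was -0.21, and -0.015 over all genes.

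Among the female folding genes, Sdf2l1, a small partner of Hspa5 and its J proteins, was at 3.73, 9.92 and 5.50 CPM in mock libraries 1 to 3. In the C-del libraries it was at 2.59, 2.30, 3.21 and 2.32 CPM. Every mock library lay above every C-del library, and the log2 fold change was -1.30 ± 0.32 (adjusted p = 0.17 with edgeR and 0.029 with DESeq2). Hsp90b1 was at 104, 211 and 151 CPM in mock and at 113, 105, 112 and 119 CPM in C-del libraries (log2 fold change -0.47, adjusted p = 0.39). Mock libraries 2 and 3 were high, while mock library 1 was below all C-del libraries. Pdia3, at 44.1, 92.8 and 81.6 CPM in mock and 47.2 to 56.5 CPM in C-del libraries, had the same order (-0.51, adjusted p = 0.40). Creld2, a stress-induced protein of the same compartment, was at 4.83, 16.5 and 7.26 CPM in mock and at 4.14 to 6.17 CPM in C-del libraries (-0.81, adjusted p = 0.43). Pdia4 was at 9.44, 27.9 and 11.3 CPM in mock and at 9.87 to 11.5 CPM in C-del libraries (-0.63, adjusted p = 0.51). For Pdia4, mock library 2 alone was above the C-del range. Dnajb9, a J protein that represses the Ern1 sensor, went the other way, at 49.2, 46.3 and 40.3 CPM in mock and at 49.7, 51.4, 53.5 and 64.3 CPM in C-del libraries. Its groups did not overlap (log2 fold change 0.27, adjusted p = 0.43). Across all genes, 5.71% were higher and 4.39% lower without overlap, and Dnajb9 was the 1 member that was higher, while Sdf2l1, Herpud1 and Aldh18a1 were lower.

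The female degradation genes differed among themselves. Edem1 was at 14.3, 53.8 and 21.7 CPM in mock and at 15.7, 14.3, 14.96 and 15.3 CPM in C-del libraries (log2 fold change -1.0, adjusted p = 0.34). Its mock library 1 was level with the C-del libraries, and library 2 was 3.77 times as high. Herpud1, a membrane part of the ubiquitin ligase complex of Syvn1, was at 120, 118 and 140 CPM in mock and at 107, 94.6, 113 and 102 CPM in C-del libraries (-0.28, adjusted p = 0.34). Here the 3 mock libraries were close together and all above C-del. Herpud1 is the promoter above that holds both an ERSE-II and a CARE.

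In the integrated stress response branch of females, Atf4 was at 194, 187 and 258 CPM in mock and at 180, 177, 180 and 189 CPM in C-del libraries (log2 fold change -0.23, adjusted p = 0.52). Mock library 3 was the high one. Cebpb followed that library too, at 16.9, 18.1 and 40.6 CPM in mock and 19.4 to 31.7 CPM in C-del libraries. Ddit3 had 17.1, 14.7 and 27.3 CPM in mock against 16.6 to 19.8 CPM. Mock library 3 was thus the highest of the 7 libraries for Atf4, Cebpb and Ddit3. It was the highest for 8 of the 37 members (21.6%), against 26.6% of all genes. Chac1 was highest in mock library 1, at 72.0 CPM against 22.2 and 31.4 CPM in libraries 2 and 3 and 28.6 to 48.2 CPM in C-del libraries. Ern1 was low in mock library 3, at 3.96 CPM against 13.2 and 14.6 CPM in the other mock libraries and 9.93 to 13.7 CPM in C-del libraries.

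For the synthesis enzymes of females, Aldh18a1 was at 4.39, 8.51 and 4.95 CPM in mock and at 3.04, 3.31, 3.04 and 3.43 CPM in C-del libraries. The groups did not overlap (log2 fold change -0.90 ± 0.25, adjusted p = 0.20). Psat1 was at 1.10, 5.88 and 3.19 CPM in mock and at 1.01 to 1.93 CPM in C-del libraries (-1.25, adjusted p = 0.35). Phgdh, the first enzyme of serine synthesis, was at 1.43, 7.72 and 2.20 CPM in mock and at 1.21 to 2.06 CPM in C-del libraries (-1.23, adjusted p = 0.40). Both were highest in mock library 2 and had their lowest mock value in library 1. Mthfd2 was at 4.83, 9.56 and 13.6 CPM in mock and at 3.85, 5.15, 9.21 and 7.66 CPM in C-del libraries (-0.53, adjusted p = 0.61).

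**Figure D3:**
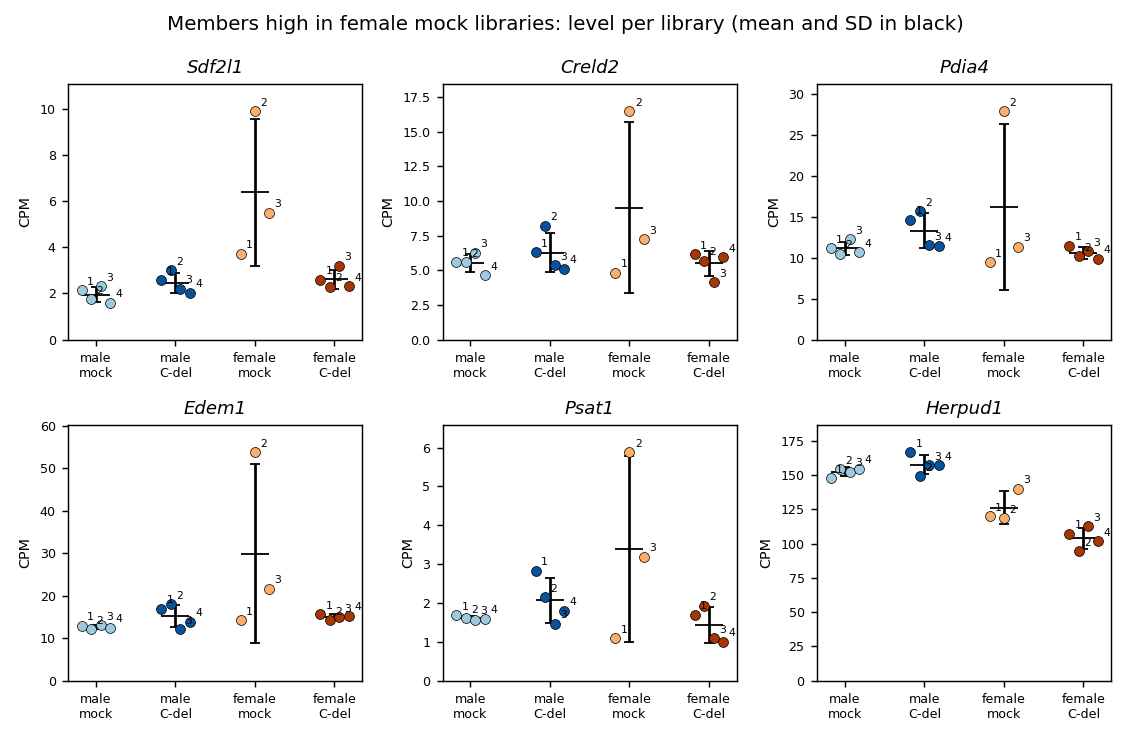
CPM per library (points, numbered) with the group mean and SD (black) for 6 members in the 4 groups. Female mock library 2 is the top point for 5 of the 6 (Edem1 at 53.8 CPM, Creld2 at 16.5 CPM), whereas the 3 female mock libraries of Herpud1 lie between 118 and 140 CPM.

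Female mock library 2 was the highest of the 7 female libraries for 19 of 37 members, against 20.4% of all genes, mock library 3 for 8 (26.6%) and mock library 1 for 1 (13.7%). Female C-del libraries 1 to 4 were the highest for 1, 0, 1 and 7 members (10.1%, 8.68%, 9.18% and 11.4%). Relative to mock library 1, 15 of 37 members were at least 1.5 times as high in mock library 2 (14.3% of all genes), 10 in mock library 3 (15.9%) and 1 in the C-del mean (6.53%). Mock library 2 had the high immune sums given above, 6855 CPM of plasma and B cell markers and 767 CPM of macrophage and leukocyte markers. In mock library 3 the sums were 46.4 and 350 CPM, the former within the C-del range (15.8 to 70.4 CPM). Ighm alone gave 21.9 of these 46.4 CPM. By the mean log2(CPM + 1) of the 22 plasma and B cell markers, mock library 3 (1.01) lay above all C-del libraries (0.50 to 0.73). Without mock libraries 2 and 3 the median member log2 fold change in females was 0.08, with 29 of 37 above 0, and 0 members passed. That fit has 1 mock library, whose spread is taken to equal that of C-del. In it, Hsp90b1, Pdia3 and Edem1 had log2 fold changes of 0.12, 0.22 and 0.08, while Sdf2l1, Aldh18a1 and Herpud1 had -0.51, -0.45 and -0.20. Without mock library 1 instead, 6 members were lower: Aldh18a1, Edem1, Hsp90b1, Pdia3, Psat1 and Sdf2l1 (adjusted p = 0.00442 to 0.0299), against 6.36% of all genes. The sums of endothelial markers were lower in all 3 female mock libraries than in the 4 C-del libraries. The part of immune or endothelial cell RNA in these values was not tested.

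**Figure D4:**
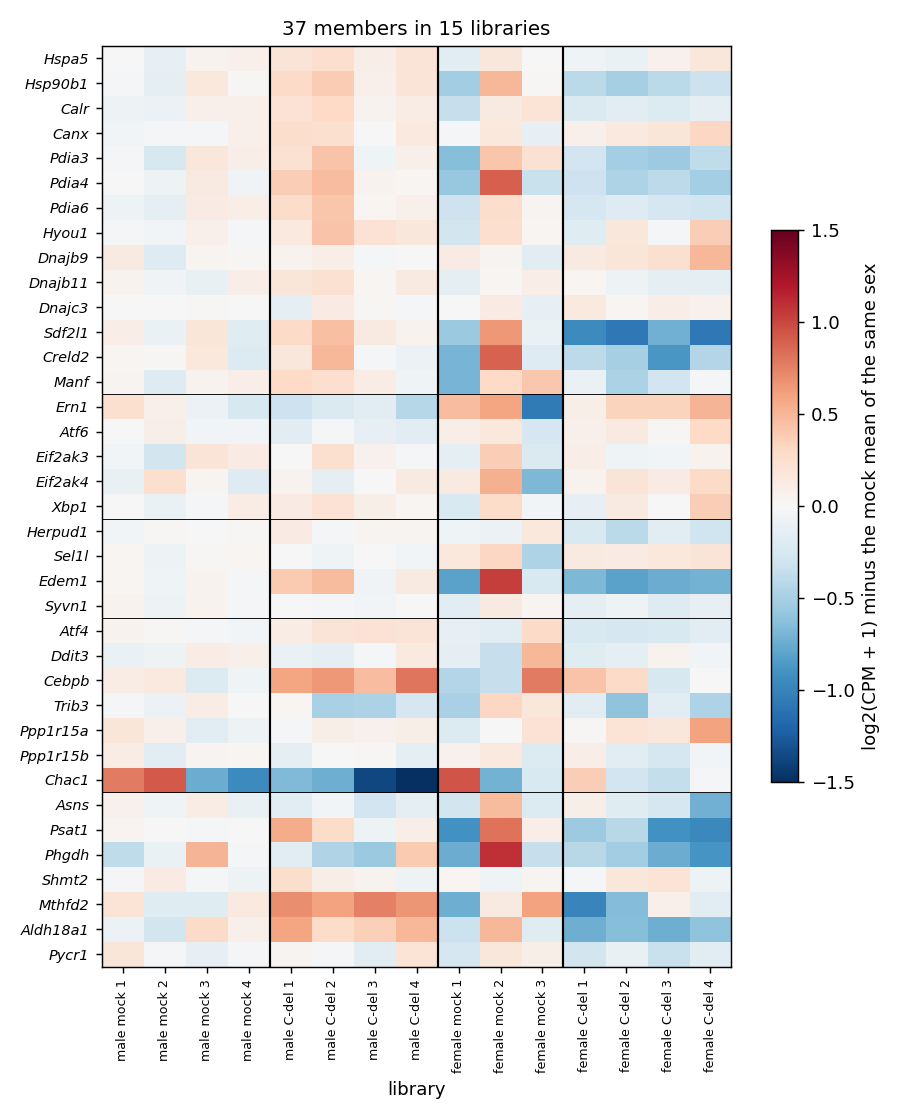
Difference of log2(CPM + 1) from the mock mean of the same sex, for the 37 tested members (rows, by role) in 15 libraries (columns). Colours end at 1.5 in either direction. The column of female mock 2 is red for most folding genes, and male C-del 1 and 2 are redder there than male C-del 3 and 4.

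The effect of C-del was then compared between the sexes in a fit of all 15 libraries. Of 37 members, 1, Aldh18a1, had a lower effect in females than in males (log2 difference -1.39 ± 0.27, adjusted p = 0.045), and 0 had a higher one, against 0.183% lower and 0.17% higher of 15272 genes. At an unadjusted p under 0.05, 13 were lower and 0 higher (9.76% and 7.09% of all genes). DESeq2 called 7 lower, Aldh18a1, Atf4, Edem1, Herpud1, Hsp90b1, Mthfd2 and Sdf2l1 (2.99%), and 0 higher (1.3%). With edgeR the differences of Sdf2l1 (-1.63), Mthfd2 (-1.31), Edem1 (-1.27), Hsp90b1 (-0.71), Atf4 (-0.41) and Herpud1 (-0.33) had adjusted p of 0.064, 0.11, 0.14, 0.10, 0.11 and 0.13. Pdia4, Pdia6, Calr and Cebpb had -0.89, -0.49, -0.38 and -0.62 (adjusted p = 0.22, 0.14, 0.19 and 0.37).

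Aldh18a1 was above mock in males (9.01 ± 0.993 against 6.48 ± 1.26 CPM, SD, n = 4 each) and below it in females (3.21 ± 0.194, n = 4, against 5.95 ± 2.24 CPM, n = 3). Female mock library 2, at 8.51 CPM, raised that mock mean: without it the difference was -1.02 (adjusted p = 0.0578), and without mock libraries 2 and 3 it was -0.94 (adjusted p = 0.228). The call of Aldh18a1 held in 2 of the 15 fits that left out 1 library, those without female mock library 1 or 3. By sign, 17 of 37 members were above 0 in males and below 0 in females (45.9%), against 25.2% of the 14022 genes tested in both sexes. A further 9 were above 0 in both, 7 below 0 in both and 4 below 0 in males alone. The median member log2 difference between the sexes was -0.23, with 9 of 37 above 0. Without female mock libraries 2 and 3, which leaves 1 female mock library, that median was 0.019 with 21 of 37 above 0 (0.0098 over all genes). In the average over the sexes 0 members passed in either direction with edgeR (2.42% higher and 1.99% lower of all genes), while unadjusted p-values under 0.05 gave 2 higher (8.89%) and 3 lower (10.8%), and DESeq2 called 1, Canx, higher (3.87%) and 0 lower (3.31%).

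**Figure D5:**
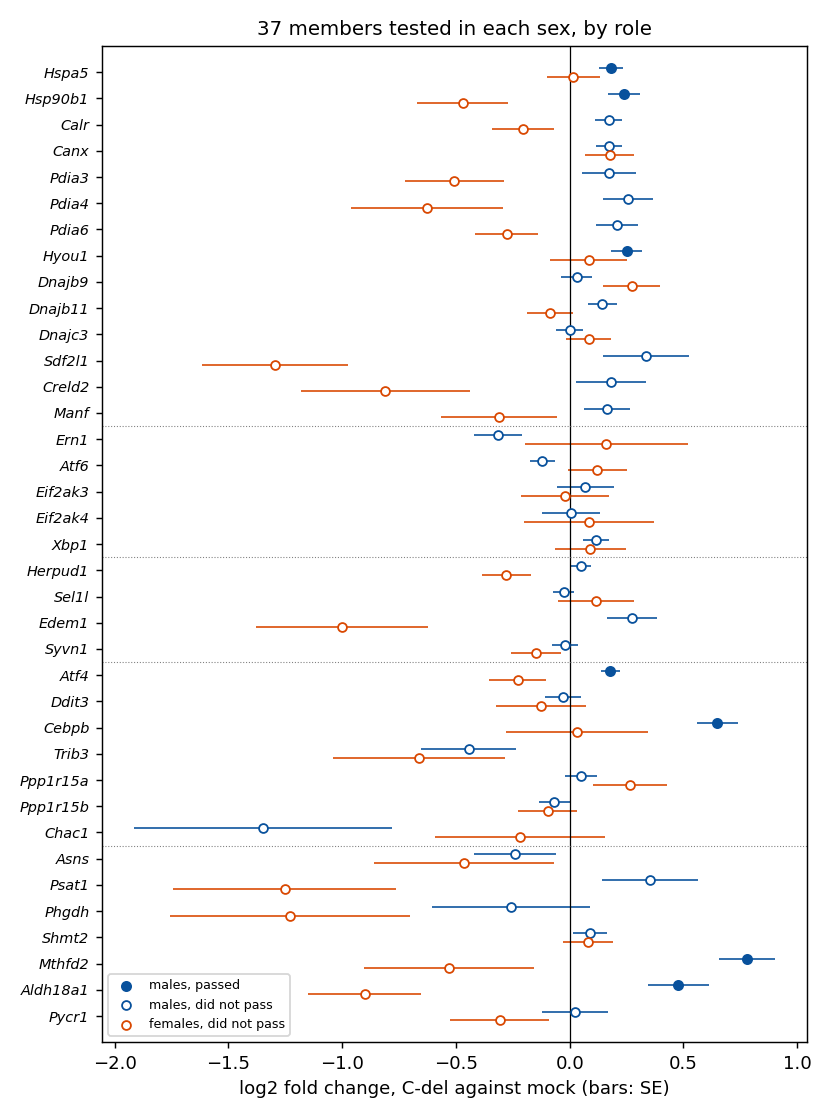
Log2 fold change of C-del against mock (x axis; bars are SE) for the 37 tested members by role, males in blue and females in orange; filled points passed. All 7 filled points are male and lie between 0.18 and 0.78, and none of the female points is filled.

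Other genes of these pathways, from lists that hold none of the 39, were counted beside them (Lonp1 is in 2 of the lists). The male counts are to be read against the 5.8% of all genes that were higher and the 5.37% that were lower. Of 41 other genes of endoplasmic reticulum folding and export, 1 rose in males (Dnajb2, 1.22-fold) and 1 fell (Sec62). Of these 41, 17 had a log2 fold change above 0 and 24 below. Of 22 other degradation genes, 3 rose (Ubxn4, Ube2j1 and Ube2g2, by 1.16-, 1.17- and 1.14-fold) and 0 fell. Of 35 other sensors and regulators, 3 rose: Traf2, an adaptor of the IRE1 sensor, by 1.24-fold, Eif2b4, a subunit of the exchange factor that the integrated stress response inhibits, by 1.21-fold, and the phosphatase Ptpn1 by 1.18-fold. Crebrf and Map3k5 fell (log2 fold changes -0.43 and -0.32, adjusted p = 0.00066 and 0.045). Of 20 aminoacyl-tRNA synthetases, 1 rose (Sars, 1.19-fold) and 16 had a log2 fold change above 0, as did 7125 of all 14543 genes. Of 16 mitochondrial chaperones and proteases, Afg3l2 rose by 1.17-fold and Clpx fell (log2 fold change -0.19).

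Of 33 other ATF4 target genes, 4 rose and 2 fell in males, where 5.8% and 5.37% of all genes did. Ddit4 (REDD1), an inhibitor of mTORC1 that ATF4, glucocorticoids and hypoxia can induce, was at 11.2, 12.5, 12.9 and 13.7 CPM in male mock and at 58.8, 47.4, 63.6 and 77.0 CPM in male C-del libraries. The groups were far apart, with a 4.91-fold difference (adjusted p = 3.0e-05). In females Ddit4 was at 7.02, 11.1 and 11.3 CPM in mock and at 10.5 to 12.3 CPM in C-del libraries, and the female minus male log2 difference was -2.06 ± 0.23 (adjusted p = 0.00058). The cell cycle inhibitor Cdkn1a rose by 1.75-fold in males, Got1 by 1.19-fold and Stbd1 by 1.18-fold. Slc1a4, a serine and alanine transporter, and Aldh1l2, a mitochondrial folate enzyme, fell (log2 fold changes -1.01 and -0.55, adjusted p = 0.028 and 0.029). The other 27 of these 33 targets did not pass in males. In females 0 genes of these 6 lists passed with edgeR. At an unadjusted p under 0.05, 1 of the 33 other ATF4 targets was higher and 6 were lower there, against 4.81% and 7.09% of all genes. DESeq2 called 0 of them higher and 3 lower (0.83% and 1.81% of all genes). Eif4ebp1, a translation inhibitor among the ATF4 targets, differed in its effect between the sexes (-0.73, adjusted p = 0.046).

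Some counts of members are less sure. Ddit3 overlaps Mars, Cebpb overlaps Tmem189, Herpud1 overlaps Gm15890 and Hsp90b1 overlaps 1810014B01Rik on the opposite strand, and Edem1 overlaps Arl8b, Mthfd2 overlaps Gm43890 and Aldh18a1 overlaps Gm15801 on the same strand, in the GENCODE annotation. The use of strand in counting is not given in the sources used here, so reads of these pairs cannot be told apart with certainty. Counts of 13 members were not whole in at least 1 library, Hspa5 in 11 of 15.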

How the data were processed

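RNA-seq libraries of mouse tibialis anterior were analysed from the 2 tables the authors deposited, 1 per sex. Per the submitters' processing notes, featureCounts 2.0.0 and the build GRCm38.p6 were used, and per the labels' protocols a stranded mRNA kit was used. Neither the aligner nor the counting options is given in the sources used here. The deposited values are expected counts, that is, estimated counts per gene, some with a fractional part (in each library 14.6% to 17.3% of values, at a tolerance of 0.001), with no normalisation. The planned design took them for whole counts. They were rounded, and the planned test was kept.

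In R 4.3.3, genes were kept by filterByExpr (minimum count 10), scaled by TMM factors and tested with edgeR 4.0.16 (robust quasi-likelihood, limma 3.58.1), with Benjamini-Hochberg adjustment over all genes and a threshold of 0.05. DESeq2 1.42.0 was an alternative. Each sex was fitted alone; the average and the difference came from all 15 libraries. CPM uses TMM-scaled library sizes, and log2(CPM + 1) uses a pseudocount of 1. SE is the log2 fold change over the root of F. The fits were tested on simulated data. Figures were drawn with matplotlib 3.10.9 (Python 3.11.15).

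The members, pathway and marker lists were chosen with earlier results of these data known. By rule, values per library are given for members that passed or had the smallest p, and others by range and count. The rule allowed up to 4 genes of each other list, but more were named of the other ATF4 targets and of the other sensors and regulators. Chac1, Ern1, Ddit3 and further single values were picked after they were seen. Alternatives were other scaling, filters, DESeq2, left-out libraries and a replicate block. Total counts per library (9285150 to 17744000) limit genes of low count most.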

Additional observations from a re-analysis of the deposited data

Results flagged for a closer look

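Of 111 sets of 4 libraries checked for a value far from the others (37 members in 3 groups), 1 stood out, where chance alone marks about 1 in 20. Sel1l, the adaptor of the degradation ligase, was at 79.1 CPM in male mock library 2 and at 84.1 to 85 CPM in the other male mock libraries.

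The female minus male effect of C-del on Aldh18a1 was -1.39 on the log2 scale (edgeR adjusted p = 0.045). It was the 1 member that passed edgeR's test of the difference, while DESeq2 called 7, and its edgeR call held in 2 of the 15 fits that left out 1 library, those without female mock library 1 or 3. It was above the mock mean in 4 of 4 male C-del libraries and below it in 4 of 4 female ones.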

How the results depend on the processing

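Shares of all genes called in the same direction and fit follow in brackets. The count of members higher in males (7, with 5.8%) was 3 with total counts in place of TMM factors (4.45%). It was 0 with all 15 libraries in one fit (1.40%, where 214 of all genes were higher and 166 lower). Without male C-del libraries 1 and 2, an alternative added after seeing the data, it was 3 (4.33%), and without mock libraries 3 and 4 it was 5 (2.62%). Leaving out 1 library gave 3 to 10, the 3 without mock library 1, 2 or 4 (3.92% to 4.93%) and the 10 without C-del library 3 (5.39%). Members lower in males (0, with 5.37%) numbered 2 without mock libraries 3 and 4 (2.5%). They numbered 0 to 1 with 1 library left out, the 1 without mock library 4 (3.49%). Members lower in females (0) numbered 1 with DESeq2 (1.81%) and 2 in one fit of 15 libraries (Aldh18a1 and Sdf2l1, with 3.37%). They numbered 0 to 6 with 1 library left out, the 6 without mock library 1, where 6.36% of all genes were lower. In the average over the sexes, members higher (0, with 2.42%) numbered 1 with DESeq2 (Canx, with 3.87%). They numbered 0 to 1 with 1 library left out, the 1 without female mock library 2 (2.80%) or 3 (3.64%). Members lower in the average (0, with 1.99%) numbered 0 to 5 with 1 library left out, the 5 without female mock library 1 (7.62%). The count with a lower effect in females than in males (1, with 0.183%) was 7 with DESeq2 (2.99%) and 0 with total counts (0.0786%). It was 0 without male C-del libraries 1 and 2 (0.0326%), and 0 to 13 with 1 library left out, the 13 without female mock library 1 (7.69%). Members higher in females, and those with a higher effect in females, numbered 0 in every alternative run.

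In females, log2 fold changes turned positive without mock libraries 2 and 3 for Edem1 (0.08), Hsp90b1 (0.12), Pdia3 (0.22), Pdia4 (0.17), Psat1 (0.39), Phgdh (0.20), Creld2 (0.18) and Mthfd2 (0.42), and without female mock library 2 for Pdia4 (0.03), whose range with 1 library left out was -0.90 to 0.03. None of the members' fold changes given singly for males or for the difference changed sign in the alternatives run, and genes of the other lists were not run under them. Over all 37 tested members the lean of the difference did change. Its median was -0.23 with all libraries (9 above 0) and 0.019 without female mock libraries 2 and 3 (21 above 0). The cause of these changes was not tested, except that leaving out libraries leaves fewer to test.

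With the female title number as a replicate block (6 libraries), 0 members were higher and 0 lower, and the median was -0.15. Same-numbered libraries had correlations of their deviations of -0.134, -0.008 and -0.041, not every library correlated best with its own number, and the numbers were not used as pairs. The block changed no call.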
